A study of Homo sapiens with 12 samples.

Results

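The genes described here are 43 genes of amino acid supply, tRNA charging and the ATF4 stress response, chosen by gene symbol from 25702 genes in the count table of WI-38 cells treated with TGF-β. They were 20 aminoacyl-tRNA synthetases, 8 stress regulators including ATF4 itself, 9 enzymes of amino acid synthesis and 6 amino acid transporters. Of the 43, 42 were among the 9490 genes abundant enough to test, and CTH was not. WI-38 is an established line of human lung fibroblasts, and RNA was sequenced from 12 flasks, 3 in each of 4 conditions. The D1 flasks were untreated and the D1+ TGF-β flasks had received the cytokine for 1 day, both at passages 2 to 3, whereas the D20 flasks were untreated and the D20+ TGF-β flasks had received it for 20 days, both at passages 5 to 6. The 20 days of culture, the later passage and the handling of the flasks therefore cannot be told apart. Day 1 flasks, by the methods, were confluent when treated. Day 20 flasks were re-seeded, given fresh medium repeatedly and planned to be nearly confluent at the end. According to the methods of the study, a single treated and a single untreated flask of day 1 gave rise to the day 20 flasks, so that the p-values there measure the spread among sister flasks. The day 1 flasks were seeded from the same line, so their p-values likewise measure the spread among flasks.

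ATF4 is a basic leucine zipper transcription factor that is translated when the initiation factor eIF2 is phosphorylated by one of its stress kinases, for example when an amino acid runs short or unfolded protein builds up in the endoplasmic reticulum. It is best known for raising genes that make, import and charge amino acids, and in fibroblasts that lay down collagen the glycine and proline needed for that protein come in part from these pathways. Because ATF4 is controlled mainly at translation and protein stability, its mRNA, which is what was measured here, is not a measure of its protein.

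ATF4 binds, with a C/EBP partner, an element that joins parts of both factors’ sites and is commonly written TGATGNAA, where N is any base. The 250 bases before the annotated start of each gene were searched for these letters on both strands, and 7 of the 34 members with a RefSeq promoter (GRCh38.p14) held them, or 20.6%, beside 1061 of 27305 genes, or 3.89%. The stretch around each match is shown because these are the members in which the letters can be set beside the response to TGF-β, with the match in capitals and read 5′ to 3′ on the strand that carries it.
AARS: ctaacttggcTGATGCAActgcgagaaa
GARS: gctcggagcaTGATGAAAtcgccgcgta
IARS: ggaggTGATGCAAcgcgctgaaa
CEBPG: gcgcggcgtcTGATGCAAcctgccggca
CHAC1: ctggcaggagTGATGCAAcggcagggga
ASNS: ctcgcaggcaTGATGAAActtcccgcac
SLC1A5: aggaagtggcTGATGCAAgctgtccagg
The match lay 6 to 13 bases before the start in IARS, 26 to 33 in GARS, 35 to 42 in CEBPG, 61 to 68 in ASNS, 90 to 97 in SLC1A5, 180 to 187 in AARS and 202 to 209 in CHAC1. A match of letters is a description of the sequence and does not show that the factor binds there.

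Library totals ran from 8674488 to 18286197 counts, and levels are given as counts scaled to library size with TMM factors (cpm), always in the order of replicates 1, 2 and 3. Changes were tested across all 9490 genes with the quasi-likelihood test of edgeR and called at an adjusted p below 0.01, and a positive log2 fold change means a higher level in the condition named first. The standard error (SE) is that of the fitted log2 fold change. Markers of fibroblasts were high in every flask, with 8 genes that summed to 13660 to 22460 cpm. COL1A1, a collagen I chain, stood at 3089 ± 576 cpm in D1 and 7452 ± 671 in D20+ TGF-β (mean ± SD, n = 3). The 8 did not move together with TGF-β. At day 1, 2 were called higher and 1 lower, beside 6.89% and 6.5% of all genes. At day 20, 1 was called higher and 3 lower, beside 12.8% and 14.7%. ACTA2, the smooth muscle actin that marks myofibroblasts, was 4.20-fold higher in D1+ TGF-β than in D1 (log2 fold change 2.07, SE 0.17, adjusted p = 2.28e-06), but in D20+ TGF-β, at 285, 302 and 357 cpm, it was not called against D20, at 277, 288 and 297 cpm (log2 fold change 0.13, adjusted p = 0.554). In the list of 5 myofibroblast markers that holds ACTA2, 4 were tested, and 4 were higher at day 1, whereas at day 20 with TGF-β 0 were higher and 2 were lower, CNN1 and ACTG2 (log2 fold change -0.44 and -0.47), calls lost with any of 5 and of 8 single flasks left out. All 4 were lower in D20+ TGF-β than in D1+ TGF-β. These marker mRNAs therefore do not check the treatment labels of the day 20 flasks, and the groups are used as labelled. The study followed the protein of ACTA2 by staining and blot. It reported no positive cells after 1 day of TGF-β and a majority positive after 20 days. The mRNA levels given here do not measure that protein. Of the markers of other cell types, the 4 endothelial genes summed to 0.454 to 2.63 cpm in any flask, with CDH5 at 0 counts. The 4 immune genes, with CD3E at 0 counts and nearly all of the sum from CD68, which other cells also express, gave 51.2 to 62.8 cpm in D1, 39.8 to 41.4 in D1+ TGF-β, 53.7 to 59.95 in D20 and 38.6 to 48.3 in D20+ TGF-β. The 6 epithelial genes gave 39.2 to 60.9, 58.4 to 60.3, 62.2 to 64.35 and 37.2 to 50.5 cpm in the same order, mostly from the keratins KRT18, KRT19 and KRT8, and their part in the results was not tested. A pair of flasks stood apart from their sisters. D1 replicate 2 was the lowest D1 flask in 29 of 42 members (69.0%, beside 38.6% of all genes tested), and D20+ TGF-β replicate 3 was the highest of its group in 35 of 42 members (83.3%, beside 40.0%), so that results are also given without these 2 flasks. In bulk RNA, fewer cells of a kind and less RNA per cell cannot be told apart.

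The first comparisons ask what TGF-β did after 1 day and after 20 days of treatment. At day 1, 23 of the 42 members tested were higher in D1+ TGF-β than in D1 and 0 were lower, where 6.89% of all genes tested were called higher and 6.5% lower, and the median log2 fold change was 0.56 over the members and -0.02 over all genes. At day 20, 27 members were higher and 2 were lower in D20+ TGF-β than in D20, where 12.8% of all genes were called higher and 14.7% lower, and the medians were 0.72 and 0.01. The flasks of the treated and untreated groups did not overlap, with treatment higher, for 29 members at day 1 (17.6% of all genes) and 32 at day 20 (28.7% of all genes), and with treatment lower for 1 at day 1 (18.8% of all genes) and 3 at day 20 (29.7% of all genes). There were 22 members higher at both days, SARS at day 1 alone and 5 members at day 20 alone by these calls. SLC1A4 passed the filter on low levels only through the 6 treated libraries and so had to be higher there, and the counts without it were 22 of 41 and 26 of 41. Without D1 replicate 2 and D20+ TGF-β replicate 3, 27 members were higher and 0 lower at day 1, and 31 were higher and 3 lower at day 20, beside 14.3% and 18.5% of all genes called higher.

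**Figure D1:**
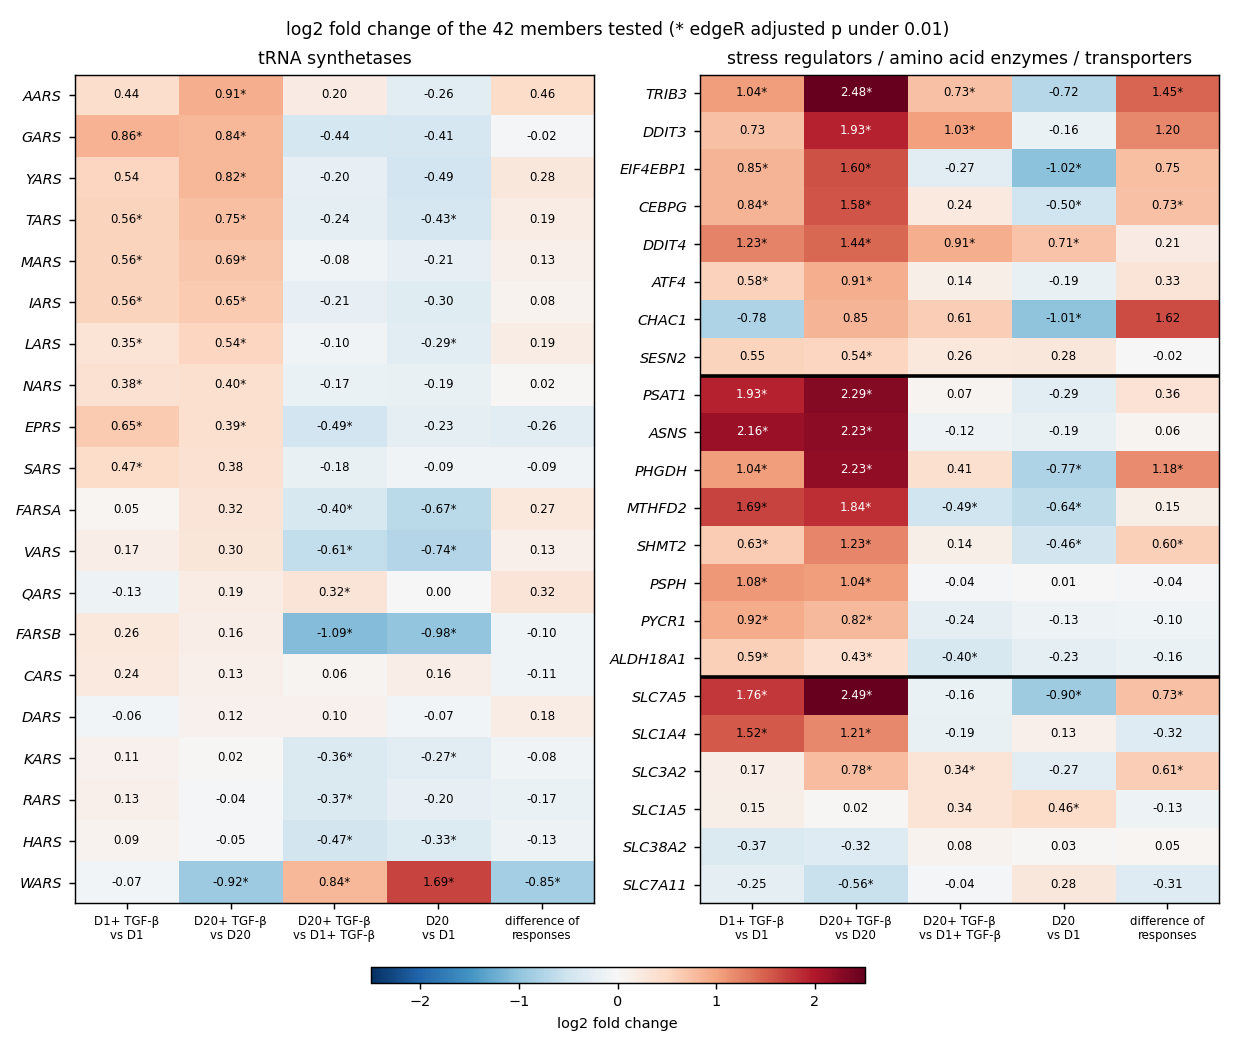
Fitted log2 fold change of each of the 42 members tested (1 line each, grouped by role) in the 4 comparisons and, in the last column, the day 20 response to TGF-β minus the day 1 response, with red for higher, blue for lower and an asterisk for an adjusted p below 0.01. The 8 enzymes carry an asterisk in both columns of TGF-β response, whereas the synthetases are split, with 8 of 20 higher at day 1 and 9 of 20 at day 20, and WARS is lower at day 20.

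The enzymes that make amino acids gave the most uniform response, with 8 of 8 tested called higher at day 1 and 8 of 8 at day 20. The shares of all genes called higher were 6.89% and 12.8%. The median log2 fold change of these enzymes was 1.06 at day 1 and 1.53 at day 20. The summed level of the 9 enzyme genes was 336 to 442 cpm in the D1 flasks and 924 to 938 in D1+ TGF-β, and it was 291 to 333 in D20 and 724 to 1078 in D20+ TGF-β. No treated flask overlapped an untreated flask in this sum at either day.

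ASNS, the enzyme that makes asparagine from aspartate and glutamine, stood at 31.8, 15.9 and 28.7 cpm in the D1 flasks, 112, 112 and 114 in D1+ TGF-β, 19.5, 22.3 and 24.4 in D20 and 91.0, 79.4 and 142 in D20+ TGF-β. Its treated flasks lay far above the untreated flasks at both days, and D20+ TGF-β replicate 3 was the highest of all 12. The gene was 4.48-fold higher with TGF-β at day 1 (log2 fold change 2.16, SE 0.23, adjusted p = 2.17e-05) and 4.68-fold higher at day 20 (log2 fold change 2.23, SE 0.23, adjusted p = 6.94e-06). The 250 bases before its start, at chr7:97872409-97872658 on the minus strand of GRCh38.p14, are shown because this is the member with the largest day 1 change whose promoter holds the motif, in capitals.
ASNS promoter: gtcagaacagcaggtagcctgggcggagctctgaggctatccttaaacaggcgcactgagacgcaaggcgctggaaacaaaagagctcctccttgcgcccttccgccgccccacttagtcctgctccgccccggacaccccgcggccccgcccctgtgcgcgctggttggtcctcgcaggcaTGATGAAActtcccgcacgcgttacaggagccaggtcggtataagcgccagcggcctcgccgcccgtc
PSAT1, the aminotransferase of the second step of serine synthesis, stood at 44.9, 26.6 and 47.1 cpm in the D1 flasks, 145, 152 and 153 in D1+ TGF-β, 28.3, 29.8 and 37.6 in D20 and 128, 121 and 222 in D20+ TGF-β. The groups did not overlap at either day, and D20+ TGF-β replicate 3 was again far above its sisters. PSAT1 was 3.81-fold higher at day 1 (log2 fold change 1.93, SE 0.23, adjusted p = 6.06e-05) and 4.88-fold higher at day 20 (log2 fold change 2.29, SE 0.24, adjusted p = 6.61e-06). PHGDH, the dehydrogenase of the first step of the same pathway, stood at 45.1, 28.2 and 39.3 cpm in the D1 flasks, 80.2, 69.0 and 82.7 in D1+ TGF-β, 21.3, 20.7 and 23.5 in D20 and 86.7, 83.9 and 137 in D20+ TGF-β. Its lowest treated flask was above its highest untreated flask at each day. PHGDH was 2.06-fold higher at day 1 (log2 fold change 1.04, SE 0.19, adjusted p = 0.00131) and 4.67-fold higher at day 20 (log2 fold change 2.23, SE 0.19, adjusted p = 1.54e-06). PSPH, the phosphatase of the last step, rose by 1.08 and 1.04 on the log2 scale at the 2 days, so that each of the 3 genes of the pathway passed the test at both.

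MTHFD2, a mitochondrial dehydrogenase of the folate cycle, stood at 58.7, 60.5 and 70.0 cpm in the D1 flasks, 202, 208 and 199 in D1+ TGF-β, 39.1, 38.8 and 43.7 in D20 and 133, 115 and 187 in D20+ TGF-β. The D1+ TGF-β flasks were close together and more than 100 cpm above every D1 flask. MTHFD2 was 3.22-fold higher with TGF-β at day 1 (log2 fold change 1.69, SE 0.14, adjusted p = 2.28e-06) and 3.57-fold higher at day 20 (log2 fold change 1.84, SE 0.14, adjusted p = 4.93e-07). SHMT2, which splits serine into glycine and a one-carbon unit in mitochondria, rose less, by 0.63 at day 1 and 1.23 at day 20 on the log2 scale. The enzymes of proline synthesis, ALDH18A1 at its first step and PYCR1 at its last, were also higher, with log2 fold changes of 0.59 and 0.92 at day 1 and 0.43 and 0.82 at day 20. CTH, which releases cysteine from cystathionine, was too low for the test, at 1.89, 2.52 and 1.53 cpm in the D1 flasks, 4.85, 6.69 and 6.64 in D1+ TGF-β, 1.84, 1.52 and 1.59 in D20 and 4.17, 3.60 and 5.93 in D20+ TGF-β. Its treated flasks lay above its untreated flasks at both days, and in a fit with no filter on low levels its log2 fold change was 1.59 (adjusted p = 1.60e-05) at day 1 and 1.48 (adjusted p = 3.74e-05) at day 20. Reads from the 7 named pseudogene copies of MTHFD2, the 5 of ASNS and the 4 of PSAT1 could have been shared with their parent genes in the counting, which limits how exactly these levels are known.

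**Figure D2:**
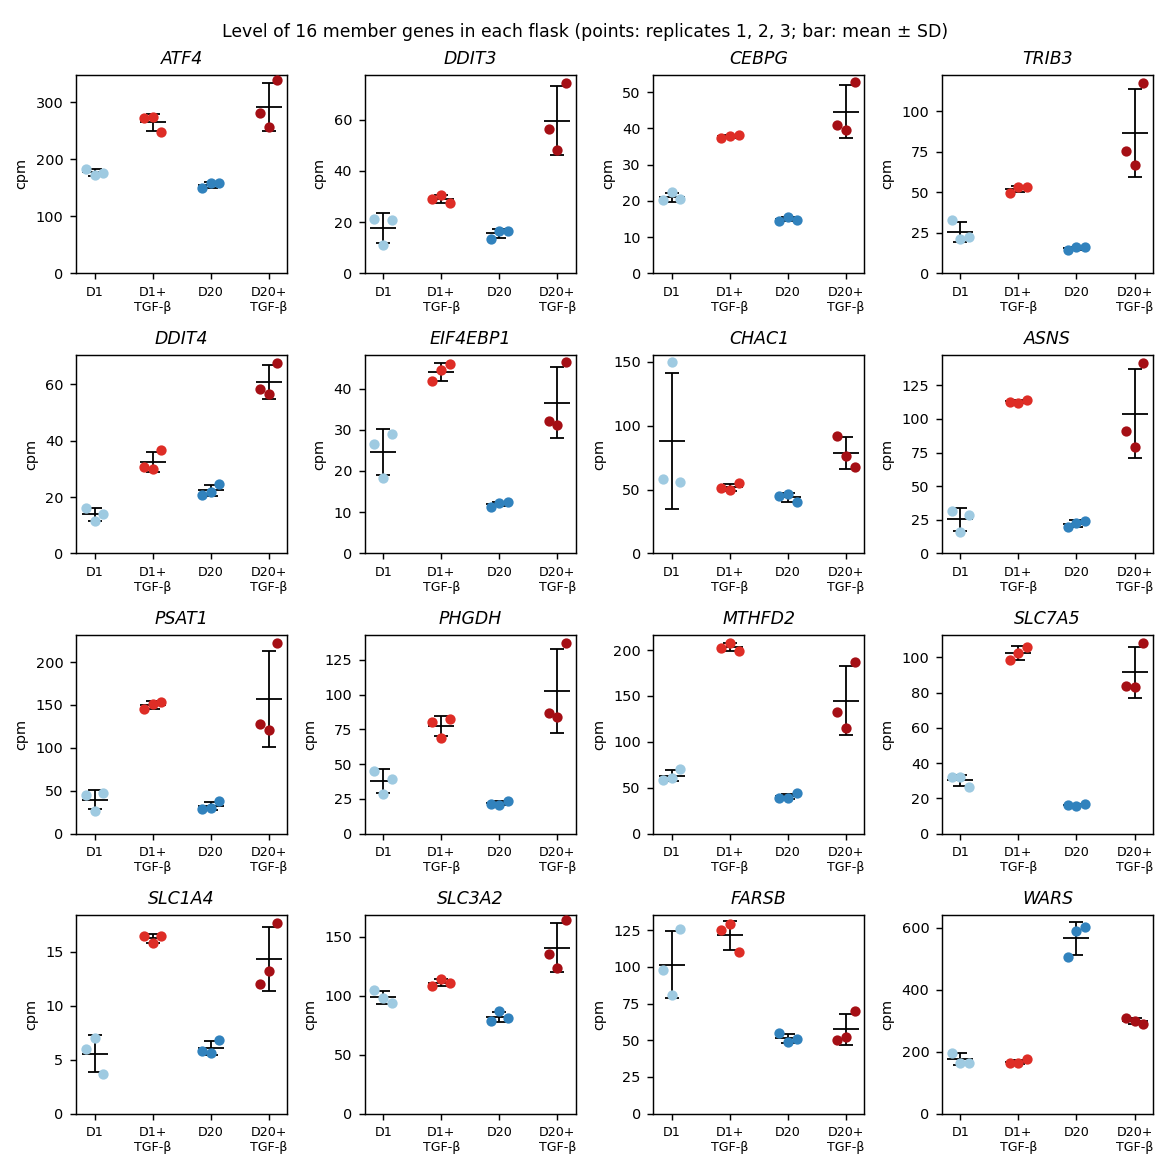
Level in cpm (vertical axes, each starting at 0) of 16 members in each of the 12 flasks, with points for replicates 1, 2 and 3 and bars for the mean ± SD of the 3 flasks. The treated flasks of ASNS, PSAT1, PHGDH, MTHFD2 and SLC7A5 sit above every untreated flask at both days, WARS is highest in the D20 flasks, and D1 replicate 2 of CHAC1 sits at 149.8 cpm, far above the other D1 flasks.

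The stress regulators were called higher in 5 of 8 genes at day 1 and 7 of 8 at day 20, beside 6.89% and 12.8% of all genes. None was called lower. Their median log2 fold change was 0.79 at day 1 and 1.51 at day 20. ATF4 mRNA stood at 183, 172 and 175 cpm in the D1 flasks, 272, 274 and 248 in D1+ TGF-β, 149, 159 and 158 in D20 and 280.1, 256 and 339 in D20+ TGF-β. Every treated flask was above every untreated flask, at both days. ATF4 was 1.50-fold higher at day 1 (log2 fold change 0.58, SE 0.09, adjusted p = 0.000484) and 1.88-fold higher at day 20 (log2 fold change 0.91, SE 0.09, adjusted p = 5.81e-06). The gene lies at chr22:39915700-39918688 (GRCh37, plus strand) and has 4 named pseudogene copies, with the same limit on counting as above.

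TRIB3, a pseudokinase that binds ATF4 and restrains it, stood at 32.6, 21.3 and 22.6 cpm in the D1 flasks, 49.9, 53.1 and 53.2 in D1+ TGF-β, 14.2, 16.1 and 15.9 in D20 and 75.3, 67.0 and 118 in D20+ TGF-β. Its treated flasks did not overlap the untreated flasks at either day, and the D20 flasks were the lowest of the 4 groups. The gene lies at chr20:343479-378203 (GRCh37, plus strand). TRIB3 was 2.05-fold higher at day 1 (log2 fold change 1.04, SE 0.19, adjusted p = 0.00168) and 5.60-fold higher at day 20 (log2 fold change 2.48, SE 0.20, adjusted p = 6.95e-07). DDIT3, the factor also called CHOP that promotes cell death under lasting stress, stood at 21.1, 11.03 and 20.9 cpm in the D1 flasks, 29.1, 30.6 and 27.2 in D1+ TGF-β, 13.4, 16.6 and 16.6 in D20 and 56.2, 48.1 and 74.5 in D20+ TGF-β. D1 replicate 2 was well below its sisters, and the treated flasks were above the untreated at both days. DDIT3 was not called at day 1 (log2 fold change 0.73, SE 0.21, adjusted p = 0.0228) and was 3.81-fold higher at day 20 (log2 fold change 1.93, SE 0.21, adjusted p = 9.40e-06). Without both D1 replicate 2 and D20+ TGF-β replicate 3 it was called at day 1 as well (log2 fold change 0.48, adjusted p = 0.00140). DDIT3 overlaps MARS on the opposite strand of chromosome 12, and since the sources used here do not say whether counting used strand, reads of the pair may have been mixed. In all, 21 of the 43 members overlap a gene on the opposite strand, so the limit is not particular to this pair. WARS, AARS, HARS, SHMT2 and MTHFD2 are among the 21.

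DDIT4, an inhibitor of the growth kinase complex mTORC1, stood at 16.1, 11.6 and 13.9 cpm in the D1 flasks, 30.9, 30.1 and 36.6 in D1+ TGF-β, 20.7, 21.9 and 24.5 in D20 and 58.5, 56.6 and 67.8 in D20+ TGF-β. Each group was separate from the others, with D20+ TGF-β above all. DDIT4 was 2.35-fold higher with TGF-β at day 1 (log2 fold change 1.23, SE 0.13, adjusted p = 1.82e-05) and 2.71-fold higher at day 20 (log2 fold change 1.44, SE 0.12, adjusted p = 9.28e-07). CEBPG, a leucine zipper protein that pairs with ATF4, stood at 20.1, 22.4 and 20.5 cpm in the D1 flasks, 37.2, 37.9 and 38.2 in D1+ TGF-β, 14.4, 15.5 and 14.8 in D20 and 41.0, 39.7 and 53.0 in D20+ TGF-β. The D1+ TGF-β flasks were close together and well above the D1 flasks. CEBPG was 1.79-fold higher at day 1 (log2 fold change 0.84, SE 0.11, adjusted p = 7.95e-05) and 2.98-fold higher at day 20 (log2 fold change 1.58, SE 0.11, adjusted p = 1.54e-07). Its promoter, at chr19:33373863-33374112 on the plus strand, holds the motif in the reading direction of the gene and is shown as that of ATF4's own partner.
CEBPG promoter: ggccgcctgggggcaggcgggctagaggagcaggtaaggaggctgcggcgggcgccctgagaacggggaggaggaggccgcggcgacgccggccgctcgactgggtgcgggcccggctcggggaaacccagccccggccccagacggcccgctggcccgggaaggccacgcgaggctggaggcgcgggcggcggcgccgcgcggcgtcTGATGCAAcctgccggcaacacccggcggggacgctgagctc
EIF4EBP1, which holds back cap-dependent translation, stood at 26.6, 18.3 and 28.9 cpm in the D1 flasks, 41.7, 44.5 and 45.9 in D1+ TGF-β, 11.3, 12.3 and 12.4 in D20 and 32.2, 31.1 and 46.5 in D20+ TGF-β. The treated flasks were above the untreated at both days, and the D20 flasks were low and close together. EIF4EBP1 was 1.80-fold higher at day 1 (log2 fold change 0.85, SE 0.16, adjusted p = 0.00211), a call lost without D1+ TGF-β replicate 2 (adjusted p = 0.012), and 3.03-fold higher at day 20 (log2 fold change 1.60, SE 0.17, adjusted p = 1.05e-05). SESN2, a leucine sensor upstream of mTORC1, had log2 fold changes of 0.55 at day 1, which was not called (adjusted p = 0.0147), and 0.54 at day 20, which was (adjusted p = 0.00880) but was lost with any of 8 single flasks left out (adjusted p from 0.0125 to 0.0328).

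CHAC1, which breaks down glutathione, was the one stress regulator called at neither day, and its day 1 value rested on 1 flask. It stood at 58.5, 149.8 and 55.7 cpm in the D1 flasks, 51.2, 49.5 and 54.8 in D1+ TGF-β, 44.6, 46.8 and 40.1 in D20 and 91.9, 76.4 and 67.7 in D20+ TGF-β. D1 replicate 2 was far above every other flask, whereas the other D1 flasks lay just above the D1+ TGF-β flasks, and the D20+ TGF-β flasks were clear of the D20 flasks. With all flasks the log2 fold change was -0.78 at day 1 (SE 0.29, adjusted p = 0.0661) and 0.85 at day 20 (SE 0.29, adjusted p = 0.0302). Without D1 replicate 2, the day 1 value was near 0 (log2 fold change -0.13, adjusted p = 0.375) and the day 20 value was called higher (log2 fold change 0.87, adjusted p = 1.03e-05). Its promoter, at chr15:40953221-40953470 on the plus strand, is shown because it holds the motif on the other strand, so that the capitals read as the reverse complement.
CHAC1 promoter: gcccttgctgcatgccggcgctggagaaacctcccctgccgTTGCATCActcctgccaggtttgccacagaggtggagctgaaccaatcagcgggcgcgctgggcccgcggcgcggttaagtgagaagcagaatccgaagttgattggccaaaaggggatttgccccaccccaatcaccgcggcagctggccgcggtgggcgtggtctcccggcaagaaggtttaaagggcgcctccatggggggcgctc

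Among the transporters, 2 of 6 were called higher at day 1, beside 6.89% of all genes, and 3 of 6 at day 20, beside 12.8%. At day 20, 1 of 6 (16.7%) was called lower, near the 14.7% of all genes. Without SLC1A4, which the filter admitted through its treated flasks, 1 of 5 was higher at day 1, and 2 of 5 were higher and 1 lower at day 20. SLC7A5, the light chain of the LAT1 carrier that brings in leucine and other large neutral amino acids, stood at 32.0, 32.1 and 26.6 cpm in the D1 flasks, 98.5, 103 and 106 in D1+ TGF-β, 16.4, 15.5 and 16.9 in D20 and 83.5, 83.0 and 108 in D20+ TGF-β. The treated and untreated flasks were far apart at both days, and the D20 flasks differed by less than 2 cpm. SLC7A5 was 3.38-fold higher at day 1 (log2 fold change 1.76, SE 0.11, adjusted p = 1.42e-07) and 5.62-fold higher at day 20 (log2 fold change 2.49, SE 0.11, adjusted p = 4.77e-09), which with that of TRIB3 was the largest of the members there. The gene lies at chr16:87863629-87903113 (GRCh37, minus strand), with 2 named pseudogene copies. Its heavy chain SLC3A2, which carries the light chain to the cell surface, stood at 105, 98.1 and 93.5 cpm in the D1 flasks, 109, 114 and 111 in D1+ TGF-β, 78.5, 87.1 and 81.0 in D20 and 135, 124 and 164 in D20+ TGF-β. The flasks of D1 and D1+ TGF-β were close but did not overlap, while those of D20+ TGF-β were well above D20. SLC3A2 was not called at day 1 (log2 fold change 0.17, SE 0.09, adjusted p = 0.201) and was 1.72-fold higher at day 20 (log2 fold change 0.78, SE 0.09, adjusted p = 2.44e-05).

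SLC1A4, a carrier of alanine, serine and cysteine, stood at 6.01, 6.97 and 3.66 cpm in the D1 flasks, 16.4, 15.8 and 16.5 in D1+ TGF-β, 5.82, 5.62 and 6.85 in D20 and 12.0, 13.2 and 17.7 in D20+ TGF-β. The treated flasks of each day exceeded the untreated flasks, as the filter required for this gene. SLC1A4 was 2.88-fold higher at day 1 (log2 fold change 1.52, SE 0.19, adjusted p = 9.23e-05) and 2.31-fold higher at day 20 (log2 fold change 1.21, SE 0.19, adjusted p = 0.000236). SLC7A11, the cystine and glutamate exchanger that shares the heavy chain SLC3A2, was lower at day 20 in all 3 treated flasks, at 230.3, 241 and 219 cpm, than in the untreated, at 317, 323 and 377 (log2 fold change -0.56, SE 0.10, adjusted p = 0.000792). At day 1 it was not called (log2 fold change -0.25, adjusted p = 0.103). The glutamine carriers SLC1A5 and SLC38A2 were called at neither day, with log2 fold changes at day 20 of 0.02 (adjusted p = 0.886) and -0.32 (adjusted p = 0.158). The SLC1A5 promoter is one of the 7 that hold the motif. SLC38A2 had the same outlying flask as CHAC1, at 1065, 2019 and 1193 cpm in D1, and without D1 replicate 2 it was called lower with TGF-β at day 20 (log2 fold change -0.30, adjusted p = 0.00242).

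The aminoacyl-tRNA synthetases load each amino acid onto its tRNA. They were called higher in 8 of 20 at day 1 and 9 of 20 at day 20, beside 6.89% and 12.8% of all genes. WARS was called lower at day 20, where 14.7% of all genes were. Called at both days were EPRS, GARS, IARS, LARS, MARS, NARS and TARS, with SARS at day 1 alone and AARS and YARS at day 20 alone. The changes were modest. GARS, which charges glycine in cytosol and mitochondria, rose by 0.86 at day 1 and 0.84 at day 20 on the log2 scale, the largest day 1 value among the synthetases, and AARS, which charges alanine, had 0.44 (adjusted p = 0.0151) and then 0.91 (adjusted p = 5.28e-05). EPRS, which charges glutamate and proline, rose by 0.65 and 0.39. Calls near the threshold were lost when a single flask was left out, those of SARS, NARS and LARS at day 1 (adjusted p from 0.0106 to 0.0312) and of EPRS at day 20 without D20 replicate 2 (adjusted p = 0.0119).

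The synthetases called at neither day were CARS, DARS, FARSA, FARSB, HARS, KARS, QARS, RARS and VARS, whose log2 fold changes lay between -0.13 and 0.26 at day 1 and between -0.05 and 0.32 at day 20. WARS, which charges tryptophan and is also known as an interferon-induced gene, stood at 197, 164 and 164 cpm in the D1 flasks, 162, 164 and 176 in D1+ TGF-β, 504, 589 and 601 in D20 and 308, 299.8 and 289.6 in D20+ TGF-β. The D1 and D1+ TGF-β flasks overlapped, whereas the D20 flasks stood at 504 cpm or more, against 308 or less in every other flask. The gene lies at chr14:100800127-100843142 (GRCh37, minus strand). WARS was not called at day 1 (log2 fold change -0.07, SE 0.09, adjusted p = 0.634) and was 1.89-fold lower with TGF-β at day 20 (log2 fold change -0.92, SE 0.09, adjusted p = 3.84e-06).

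The response could be set against the 17 synthetases that serve mitochondria alone, of which 15 were tested. At day 1, 0 were called higher and 0 lower, beside 6.89% and 6.5% of all genes. At day 20, 2 were higher and 2 lower, or 13.3% each way. These day 20 shares were near those of all genes, 12.8% and 14.7%. NARS2 and YARS2 were higher at day 20, by 0.63 and 0.53 on the log2 scale, and RARS2 was lower (log2 fold change -0.54, adjusted p = 0.000176). The call for NARS2 was lost with any of 4 single flasks left out (adjusted p from 0.0119 to 0.0157). The summed level of the 17 genes was 654 to 730 cpm in D1 and 649 to 671 in D1+ TGF-β, while that of the 20 member synthetases was 2944 to 3437 in D1 and 4193 to 4362 in D1+ TGF-β. In D20 and D20+ TGF-β the mitochondrial sums were 608 to 620 and 600 to 617 cpm, and the member sums 3036 to 3130 and 3499 to 4179. The treated flasks therefore exceeded the untreated in the member sum and not in the mitochondrial sum, at both days.

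**Figure D3:**
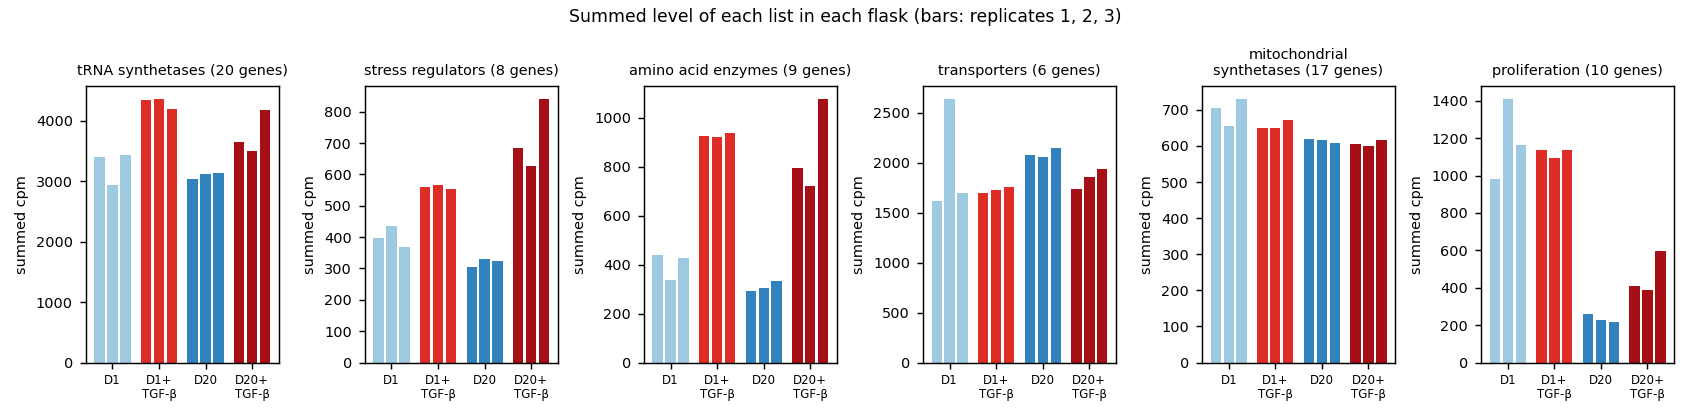
Summed level in cpm (vertical axes from 0) of the 4 groups of members, of the mitochondrial synthetases and of 10 proliferation genes, with 1 bar per flask. The enzyme and regulator sums are higher in every treated flask than in any untreated flask of the same day, and the mitochondrial synthetases are not. The transporter sum overlaps at day 1. At day 20 it is lower with treatment, at 2059 to 2151 cpm in D20 and 1737 to 1934 in D20+ TGF-β. Most of the transporter sum is SLC38A2, at 1428 to 1473 cpm in D20 and 1081 to 1235 in D20+ TGF-β. With all flasks that gene was not called at day 20, where 3 of 6 transporters were called higher and 1 lower. The proliferation sum is 216 to 261 cpm in D20 and 387 to 597 in D20+ TGF-β.

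Comparing D20 with D1 asks what differed over time in culture without TGF-β, together with passage and re-seeding. Here more members were lower than higher. In this comparison 14 of 42 members were lower and 3 were higher, where 17.6% of all genes tested were called lower, 18.9% higher and 36.4% in either direction. The median log2 fold change was -0.25 over the members and 0.01 over all genes. The count rested on D1 replicate 2, without which 27 members were called, and on the D20 flasks, with 11 called without D20 replicate 2 and 10 without replicate 3. With D1 replicate 2 and D20+ TGF-β replicate 3 both left out, 28 members were lower and 5 higher, beside 24.9% and 24.0% of all genes.

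EIF4EBP1 fell by 1.02 on the log2 scale (SE 0.18, adjusted p = 0.000339) and SLC7A5 by 0.90 (SE 0.12, adjusted p = 2.80e-05), from the flask values given above. FARSB, the beta subunit of the phenylalanine synthetase, stood at 97.7, 80.9 and 126 cpm in the D1 flasks, 125, 129 and 110.4 in D1+ TGF-β, 54.6, 48.6 and 50.6 in D20 and 50.4, 52.2 and 69.7 in D20+ TGF-β. The day 20 flasks were below every day 1 flask, whichever the treatment. FARSB fell by 0.98 without TGF-β (SE 0.15, adjusted p = 0.000112) and by 1.09 with it (SE 0.15, adjusted p = 6.71e-05), and its partner subunit FARSA also fell without TGF-β (log2 fold change -0.67, adjusted p = 0.000116). VARS, which charges valine, stood at 156, 113 and 132 cpm in the D1 flasks, 151, 149 and 152 in D1+ TGF-β, 82.5, 82.5 and 75.3 in D20 and 94.5, 93.1 and 108 in D20+ TGF-β. Its day 20 flasks were below all day 1 flasks, and it was 1.67-fold lower without TGF-β (log2 fold change -0.74, SE 0.10, adjusted p = 4.96e-05) and 1.53-fold lower with it (log2 fold change -0.61, SE 0.10, adjusted p = 0.000278).

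PHGDH was lower in D20 than in D1 (log2 fold change -0.77, SE 0.20, adjusted p = 0.00540), a call lost with any of 5 single flasks left out (adjusted p from 0.0132 to 0.0313). CHAC1 was called lower (log2 fold change -1.01, SE 0.29, adjusted p = 0.00975), and without D1 replicate 2 its change was less than that but still called (log2 fold change -0.40, adjusted p = 0.00809), while leaving out any of 8 other flasks ended the call (adjusted p from 0.0116 to 0.0401). The genes that rose were WARS, 3.23-fold (log2 fold change 1.69, SE 0.09, adjusted p = 3.23e-08), DDIT4, 1.63-fold (log2 fold change 0.71, SE 0.13, adjusted p = 0.000521), and SLC1A5, by 0.46 on the log2 scale (adjusted p = 0.00307). The call for SLC1A5 was lost without D20 replicate 2 or D20 replicate 3 (adjusted p from 0.013 to 0.0153). ATF4 itself was not called (log2 fold change -0.19, SE 0.09, adjusted p = 0.109). Of the mitochondrial synthetases, 7 of 15 were lower (17.6% of all genes) and 1 was higher (18.9% of all genes). One of these, MARS2, passed the filter only through the 6 day 1 libraries and so had to be lower at day 20, and without it 6 of 14 were lower.

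Comparing D20+ TGF-β with D1+ TGF-β sets long against short treatment, together with the 20 days of culture, the later passage and the re-seeding. These cannot be told apart from the length of treatment. Here 6 members were higher and 9 lower, where 17.2% of all genes were called higher, 17.7% lower and 34.8% in either direction. The 15 members called, of 42 tested, were near that last share. Of the 9 lower genes, 7 were synthetases. Without D1+ TGF-β replicate 2 the total called was 9, and without both flasks that stood apart it was 26, with 7 higher and 19 lower beside 23.6% and 23.7% of all genes. DDIT3 was 2.05-fold higher after 20 days (log2 fold change 1.03, SE 0.20, adjusted p = 0.000862), DDIT4 1.88-fold (log2 fold change 0.91, SE 0.12, adjusted p = 4.25e-05) and WARS 1.79-fold (log2 fold change 0.84, SE 0.09, adjusted p = 1.05e-05). TRIB3 was 1.66-fold higher (log2 fold change 0.73, SE 0.18, adjusted p = 0.00495), a call lost with any of 4 single flasks left out (adjusted p from 0.0132 to 0.0211). DDIT4 and WARS were also called higher, and FARSA, FARSB, HARS, KARS, VARS and MTHFD2 also called lower, in D20 against D1 without TGF-β. There the calls for HARS, KARS and MTHFD2 were each lost with at least 1 single flask left out. The stress regulators held 3 genes called higher and 0 lower, and the enzymes 0 higher and 2 lower, namely MTHFD2 and ALDH18A1. The call for MTHFD2 was lost with any of 9 single flasks left out (adjusted p from 0.0106 to 0.0418) and that for SLC3A2, which was higher, with any of 8 (adjusted p from 0.0104 to 0.0322), and those for FARSA, QARS and RARS were each lost under at least 1 alternative. ATF4 was not called (log2 fold change 0.14, SE 0.09, adjusted p = 0.219).

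The response to TGF-β at day 20 was then tested against the response at day 1 as an interaction. It was larger at day 20 for 6 members and smaller for 1, where 4.51% of all genes were called higher, 5.87% lower and 10.4% in either direction. TRIB3 gave the largest called difference, 1.45 on the log2 scale (SE 0.28, adjusted p = 0.00257). PHGDH followed with 1.18 (SE 0.27, adjusted p = 0.00721), then CEBPG with 0.73 (SE 0.15, adjusted p = 0.00377), SLC7A5 with 0.73 (SE 0.15, adjusted p = 0.00441), SLC3A2 with 0.61 (SE 0.13, adjusted p = 0.00563) and SHMT2 with 0.60 (SE 0.14, adjusted p = 0.00782). WARS was the member whose response was called lower at day 20, by -0.85 (SE 0.13, adjusted p = 0.000518). For ASNS and PSAT1, which responded strongly at both days, the differences of 0.06 (SE 0.32) and 0.36 (SE 0.32) were not called, and neither was that of ATF4 (0.33, SE 0.13, adjusted p = 0.0924). Only the calls for TRIB3 and WARS held under every alternative tried, and the count of 7 ran from 2 to 12 with single flasks left out. It was 4 without D1 replicate 1, 12 without D1 replicate 2, 2, 2 and 4 without D1+ TGF-β replicates 1, 2 and 3, and 2, 3 and 2 without D20 replicates 1, 2 and 3, and it was 13 without both flasks that stood apart, 11 larger and 2 smaller, beside 11.8% and 12.0% of all genes.

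**Figure D4:**
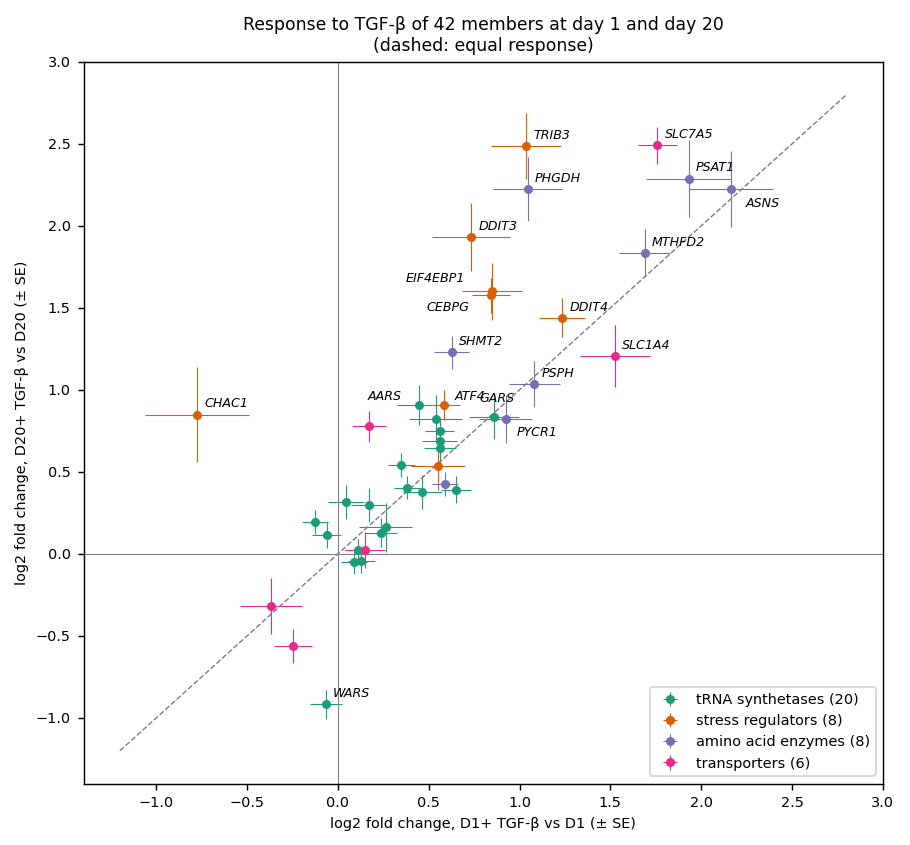
Response to TGF-β of the 42 members tested at day 1 (horizontal axis, log2 fold change of D1+ TGF-β over D1) and day 20 (vertical axis, D20+ TGF-β over D20), with bars for the fitted SE, colours for the roles and a dashed line where both responses are equal. TRIB3, PHGDH and SLC7A5 lie above the line, and ASNS, PSAT1 and MTHFD2 lie near it with large responses at both days. WARS lies near 0 on the horizontal axis and well below 0 on the vertical axis.

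A list of 10 proliferation genes also differed in the comparisons that involve day 20. At day 1 it had 0 genes higher with TGF-β and 1 lower, with summed levels of 979 to 1410 cpm in D1 and 1093 to 1136 in D1+ TGF-β. At day 20 it had 7 higher and 0 lower, with sums of 216 to 261 cpm in D20 and 387 to 597 in D20+ TGF-β, and it was lower in 10 of 10 genes in D20 against D1 and in 10 of 10 in D20+ TGF-β against D1+ TGF-β. Among all genes, 12.8% were called higher with TGF-β at day 20. Over time, 17.6% of all genes were lower in D20 and 17.7% in D20+ TGF-β. MKI67, a marker of cycling cells, averaged 21.8 ± 3.44 cpm in D20 and 72.7 ± 32.5 in D20+ TGF-β. The part of proliferation in the day 20 results of the members was not tested.

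Upstream of ATF4, the 14 genes of the eIF2 kinases, the eIF2 subunits, its exchange factor eIF2B and its phosphatase regulators moved little with TGF-β. None of the 14 was called at day 1, and at day 20 only EIF2S2, the beta subunit of eIF2, was higher, by 0.38 on the log2 scale (adjusted p = 0.00339), a call lost when 1 of 3 flasks was left out, namely replicates 1 and 3 of D20 and replicate 3 of D20+ TGF-β (adjusted p from 0.013 to 0.0184). Over time 4 of 14 were lower in D20+ TGF-β than in D1+ TGF-β and 5 of 14 in D20 than in D1, with EIF2B3 at -0.64 and -0.60. The shares of all genes called lower were 17.7% and 17.6% in the same order. Activity of these kinases is set by phosphorylation, which RNA levels do not measure.

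The neighbouring endoplasmic reticulum stress genes include targets of XBP1 and ATF6. With TGF-β, 8 of 12 were called higher at day 1 and 10 of 12 at day 20, with none lower. Of all genes tested, 6.89% were called higher at day 1 and 12.8% at day 20. HERPUD1, a component of the degradation machinery of that compartment, was 1.76-fold higher at day 1 (log2 fold change 0.82, SE 0.09, adjusted p = 3.90e-05) and 2.21-fold at day 20 (log2 fold change 1.14, SE 0.09, adjusted p = 6.99e-07). The chaperone gene HSPA5 was 1.62-fold and 1.93-fold higher (adjusted p = 0.000235 and 7.93e-06). DNAJB9 and XBP1 rose by 0.76 and 0.71 at day 1 on the log2 scale and by 1.02 and 0.70 at day 20, and SDF2L1 by 0.46 and 1.11. The day 1 call for DNAJB9 was lost without D1 replicate 1 or D1+ TGF-β replicate 2 (adjusted p from 0.0102 to 0.0127).

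Among 15 further genes known as ATF4 targets, 11 were tested. At day 1, 3 were higher and 1 lower, beside 6.89% and 6.5% of all genes. At day 20, 6 were higher and 0 lower, beside 12.8% and 14.7% of all genes. XPOT, the exporter of tRNA from the nucleus, was 1.85-fold higher at day 1 (log2 fold change 0.89, SE 0.08, adjusted p = 4.82e-06) and 2.32-fold higher at day 20 (log2 fold change 1.21, SE 0.08, adjusted p = 1.27e-07). GDF15, a stress-induced cytokine, was not called at day 1 (log2 fold change -0.19, adjusted p = 0.533) and was 2.58-fold higher at day 20 (log2 fold change 1.37, SE 0.20, adjusted p = 0.000137). VLDLR, a lipoprotein receptor, and JDP2 rose at day 1 by 1.14 and 0.90. The gene that was lower at day 1, named after its values were seen, was STC2, a secreted glycoprotein, at 449, 371 and 406 cpm in the D1 flasks and 267, 269 and 289 in D1+ TGF-β (log2 fold change -0.57, SE 0.08, adjusted p = 0.000239). ATF3, a stress-induced transcription factor of the same family, was under the filter and not tested, and is also named after its values were seen. It stood at 6.19, 13.55 and 5.45 cpm in D1, 6.15, 3.57 and 5.21 in D1+ TGF-β, 19.8, 18.0 and 17.9 in D20 and 4.12, 5.75 and 3.155 in D20+ TGF-β. The treated and untreated flasks overlapped at day 1, and at day 20 every treated flask was below every untreated one.

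Of 20 other enzymes of amino acid and one-carbon metabolism, 16 were tested. At day 1, 7 were higher and 1 lower, beside 6.89% and 6.5% of all genes. At day 20, 8 were higher and 2 lower, beside 12.8% and 14.7% of all genes. ALDH1L2, the mitochondrial enzyme that oxidises formyl-folate, was 3.59-fold higher at day 1 (log2 fold change 1.84, SE 0.17, adjusted p = 6.23e-06) and 2.59-fold at day 20 (log2 fold change 1.37, SE 0.17, adjusted p = 2.56e-05). CBS, which makes the cystathionine that CTH cleaves, rose by 0.91 at day 1 and 1.51 at day 20, BCAT1 by 0.88 and 0.75, and MTHFD1L by 0.54 and 0.86. Among 7 other amino acid transporters tested, SLC7A1, the carrier of arginine and lysine, was 2.83-fold higher at day 1 (log2 fold change 1.50, SE 0.16, adjusted p = 2.17e-05) and 4.86-fold at day 20 (log2 fold change 2.28, SE 0.17, adjusted p = 4.42e-07), whereas SLC1A1 and SLC43A2 were lower at day 20 (log2 fold change -1.15 and -1.09). The call for SLC43A2 was lost without D20 replicate 2 or D20 replicate 3 (adjusted p from 0.0112 to 0.0142).

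**Figure D5:**
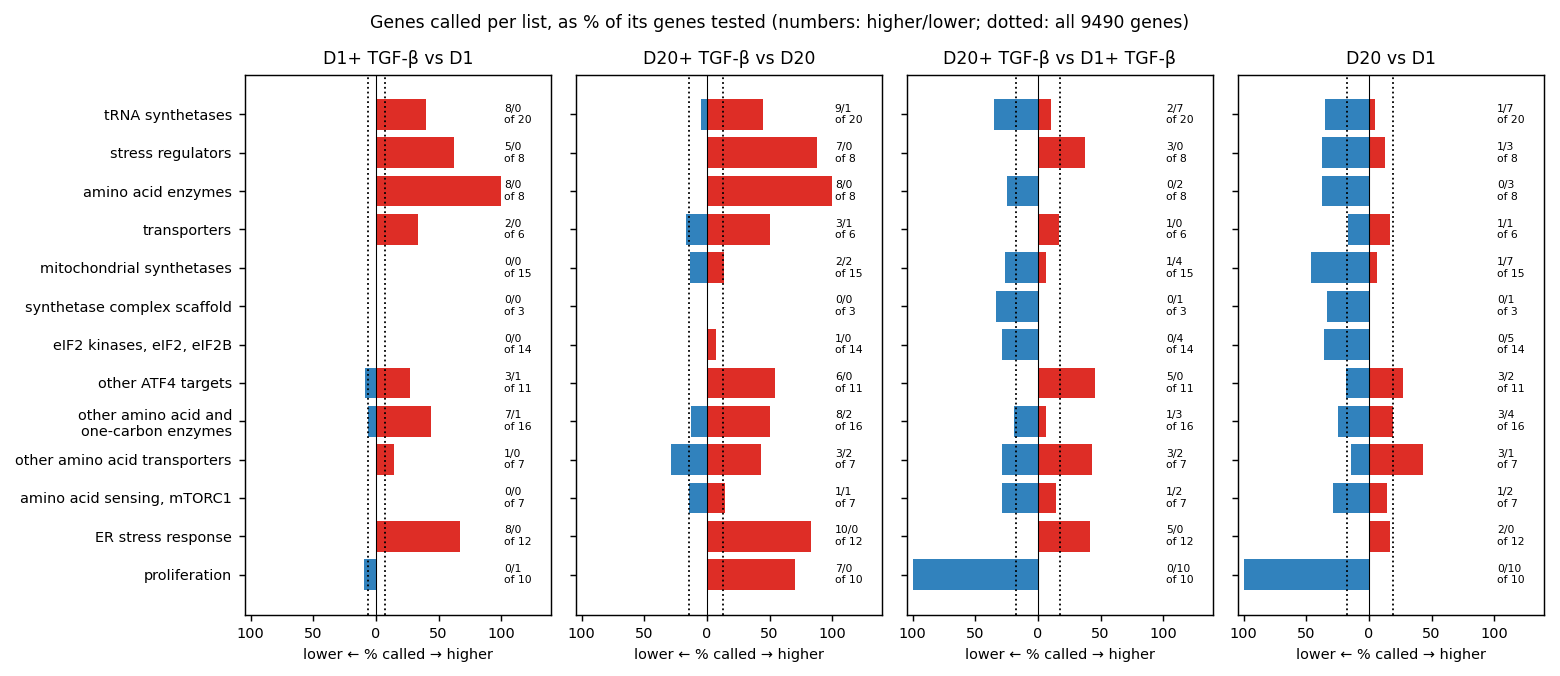
Share of the tested genes of each list that were called higher (red, to the right) or lower (blue, to the left) in each of the 4 comparisons, in percent, with the counts at the right of each panel and dotted lines at the share of all 9490 genes called in that direction. The amino acid enzymes extend furthest to the right in both TGF-β comparisons, where the eIF2 list and the mitochondrial synthetases stay near or inside the dotted lines, and all 10 proliferation genes lie to the left in the comparisons over time.

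Among the genes of amino acid sensing and mTORC1, 7 of 8 were tested, and none was called at day 1. MYC was higher with TGF-β at day 20 (log2 fold change 0.74, adjusted p = 0.00112) and EIF4EBP2, a relative of EIF4EBP1, was lower (log2 fold change -0.61, adjusted p = 0.000968). The 3 scaffold genes of the multi-synthetase complex were called at neither day with TGF-β, and of these EEF1E1 was lower over time, at -0.87 in D20 against D1 and -0.46 in the treated flasks. Its call in the treated flasks was lost with any of 4 single flasks left out (adjusted p from 0.0141 to 0.0266).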

How the data were processed

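RNA of 12 WI-38 flasks was sequenced over 4 lanes each. According to the methods and labels, the authors used a directional kit, trimmed with Trimmomatic and mapped to hg19 with Rsubread. The counting program, its annotation and its use of strand are not given in the sources used here. The authors deposited raw counts per gene and lane, which were summed over the 4 lanes of each library, and log2 values from voom for 9412 genes, which gave gene symbols and 1 alternative. No column was left unassigned (0 of 48).

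The 9490 genes that reached 10 cpm in 6 or more of the 12 libraries were kept and fitted together, with 1 mean per condition, in edgeR 4.0.16 (R 4.3.3) after TMM scaling. The p-values were adjusted by Benjamini and Hochberg over all genes tested, with calls below 0.01. Log2 fold changes carry the prior count of edgeR. With 3 flasks per group the exact permutation test of single values cannot pass 0.05 and was not used. Scripts were tested on simulated data. Alternatives were DESeq2 1.42.0, limma 3.58.1 (voom on 12 libraries or 48 lanes, or the deposited log2 values), other scaling and filters, a replicate block and each library left out.

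The members and the other lists were chosen with earlier results of these data known. Full statistics are given for ATF4 and the 6 called members with the largest change in each comparison, and values for up to 3 genes of each other list. One gene of these other lists that is counted in its list is not reported here. Gene positions come from GENCODE v44 on GRCh37 and promoters from RefSeq (GRCh38.p14). For same-numbered flasks, the deviations of log2 levels from their condition means correlated from -0.22 to 0.32 across genes. Flasks with different numbers were not correlated for comparison, so this does not settle whether the numbers pair the flasks.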

Additional observations from a re-analysis of the deposited data

Results flagged for a closer look

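The response to TGF-β differed between the days, by the test of the interaction, for 7 of the 42 members tested, where 10.4% of all genes were called. The day 20 response exceeded that at day 1 by 1.45 on the log2 scale for TRIB3, 1.18 for PHGDH, 0.73 for CEBPG, 0.73 for SLC7A5, 0.61 for SLC3A2 and 0.60 for SHMT2. For WARS the difference was -0.85. These values rest on all 12 flasks, and the calls for TRIB3 and WARS are those that held when any 1 flask was left out.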

How the results depend on the processing

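Of the 91 calls made for members over the 5 comparisons, 66 were made under every alternative tried, 25 were lost under at least 1 and 0 reversed. The number of members called moved by over 1.5 times as follows. Treating the 48 lanes as samples, which repeats each library 4 times, gave 36 for D1+ TGF-β against D1, 31 for D20+ TGF-β against D1+ TGF-β, 32 for D20 against D1 and 19 for the difference of responses. An adjusted p below 0.05 gave 27 for D20 against D1 and 11 for the difference. With D1 replicate 2 and D20+ TGF-β replicate 3 both left out, an alternative chosen after seeing the data, the counts were 26 for D20+ TGF-β against D1+ TGF-β, 33 for D20 against D1 and 13 for the difference. Leaving out each flask in turn gave 19 to 27 for D1+ TGF-β against D1, 27 to 34 for D20+ TGF-β against D20, 9 to 17 for D20+ TGF-β against D1+ TGF-β, 10 to 27 for D20 against D1 and 2 to 12 for the difference. Without a composition factor the median of all genes shifted by 0.108 in the difference, where 10 members were called. With the replicate number as a block, the counts were 23, 29, 14, 16 and 6 in the same order. Whether the numbers pair the flasks was not settled. For the marker TAGLN, called in neither, leaving out each flask in turn gave log2 fold changes of -0.0100 to 0.099 for D20+ TGF-β against D20 and -0.084 to 0.25 for D20 against D1, the lowest being those without D20+ TGF-β replicate 3 and without D1 replicate 2, and the latter was also -0.084 without both. The causes of these shifts were not tested. Depth limits CTH, whose counts ran from 18 to 118 per library.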
